A study of Mus musculus with 16 samples.

Results

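A group of 10 genes of the NRF2-linked oxidant defence were followed in quadriceps muscle of mice lacking HDAC3 and of wild-type mice, after treadmill running and at rest. They were Nqo1, Srxn1, Cat, Gclc, Gclm, Hmox1, Txnrd1, Prdx5, Sod2 and Gpx1, chosen by name from the 24354 rows of each deposited gene table. All 10 were found in both tables, and all 10 were among the 9037 genes tested after running and the 9204 tested at rest. RNA-seq had been made of 4 groups with 3 libraries each: HDAC3 knockout after running, wild type after running, HDAC3 knockout at rest and wild type at rest. All mice were males of 4 months on a C57BL/6 background. Running was 3 bouts of 1 h at 10 m/min separated by 1 h of rest, with quadriceps collected 2 h later. The same treatment text stands on the resting samples too, so the resting state was taken from their names. The design text speaks of muscle depleted of HDAC3. The allele and any Cre driver, and with them the cells that lost the gene, are not given in the sources used here. The labels also do not say that the libraries of a group came from separate animals, so the p-values measure the spread between these libraries, which may be technical.

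HDAC3 is a histone deacetylase that works within the NCoR and SMRT corepressor complexes. NRF2, encoded by Nfe2l2, is a transcription factor that KEAP1 marks for breakdown under basal conditions. Oxidants and electrophiles modify KEAP1, after which NRF2 enters the nucleus, pairs with small MAF proteins and binds antioxidant response elements. Among the best known targets are the quinone reductase Nqo1, sulfiredoxin Srxn1, thioredoxin reductase Txnrd1, both subunits of glutamate-cysteine ligase (Gclc and Gclm) and haem oxygenase Hmox1. Cat, Prdx5, Sod2 and Gpx1 remove peroxides or superoxide and are also controlled by factors other than NRF2. Working muscle produces superoxide and hydrogen peroxide, which these enzymes clear.

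The promoter windows of the genes are shown because 4 of the 10 genes rose in the resting comparison below. Whether a match goes with a rise was not tested. The core of the antioxidant response element was searched as TGACNNNGC on both strands of RefSeq windows of 300 bases, 250 before and 50 after a gene's start, on GRCm38.p6. After the windows had been read, TGAGNNNGC, another form of the core, was searched as well. Entries were held for 8 of the 10 genes, in 10 windows, and there was none for Gclc or Hmox1. Capitals in the sequences below mark each match on either strand. The Nqo1 window, without a match, is shown for comparison.
Srxn1, chr2:152105274-152105573, + strand: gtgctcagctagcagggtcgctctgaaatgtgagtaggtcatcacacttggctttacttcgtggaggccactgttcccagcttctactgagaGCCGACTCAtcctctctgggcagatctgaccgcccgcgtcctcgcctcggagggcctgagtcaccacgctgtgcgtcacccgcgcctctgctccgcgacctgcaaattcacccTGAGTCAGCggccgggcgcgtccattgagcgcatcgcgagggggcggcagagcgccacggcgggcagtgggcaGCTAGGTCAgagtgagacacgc
Txnrd1, chr10:82858956-82859255, + strand: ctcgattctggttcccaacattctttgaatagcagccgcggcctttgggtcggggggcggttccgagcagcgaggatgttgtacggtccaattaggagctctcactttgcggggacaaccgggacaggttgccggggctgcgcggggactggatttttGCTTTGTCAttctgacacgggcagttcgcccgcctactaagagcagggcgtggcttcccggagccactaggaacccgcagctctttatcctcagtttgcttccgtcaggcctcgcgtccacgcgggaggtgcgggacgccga
Gclm, chr3:122245307-122245606, + strand: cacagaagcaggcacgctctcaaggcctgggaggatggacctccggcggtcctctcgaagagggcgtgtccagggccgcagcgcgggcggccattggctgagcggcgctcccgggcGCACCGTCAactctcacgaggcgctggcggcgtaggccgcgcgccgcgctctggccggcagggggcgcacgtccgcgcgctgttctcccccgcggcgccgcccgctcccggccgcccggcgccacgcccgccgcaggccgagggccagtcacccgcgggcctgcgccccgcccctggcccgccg
Nqo1, chr8:107403156-107403455, - strand: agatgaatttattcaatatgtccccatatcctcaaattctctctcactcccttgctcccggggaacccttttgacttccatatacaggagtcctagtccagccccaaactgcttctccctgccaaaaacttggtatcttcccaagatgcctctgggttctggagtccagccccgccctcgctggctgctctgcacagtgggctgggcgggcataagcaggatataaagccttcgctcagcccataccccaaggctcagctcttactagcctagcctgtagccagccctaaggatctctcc
Txnrd1 had 3 windows, for 3 annotated starts, and the other 7 genes had 1 each. TGACNNNGC stood in 3 of the 10 windows, the single windows of Gclm and Srxn1 and the Txnrd1 window printed above, while the other 2 Txnrd1 windows held no match. Over all promoters, 4071 of 32851 windows held it, or 12.4%, and so did 17.6% of the 6840 tested genes with a window. All 3 matches lay on the strand opposite to the gene. The Gclm match began 134 bases before the start site, the Txnrd1 match 92 bases before the start site of that window and the Srxn1 match 29 bases after its start site. Of the 10 windows TGAGNNNGC was found in that of Srxn1, at 158 and 45 bases before the start, against 17.6% of all windows. The match 45 bases before the start read TGAGTCAGC on the strand of the gene. The TGACNNNGC core followed by an A stood in the Txnrd1 window and in 3.04% of all windows. A match describes these letters only, and the Nqo1 window says nothing of elements farther from the start.

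Values are FPKM, fragments scaled by transcript length and library size, as the authors deposited them. FPKM summed to between 454359 and 522966 per library, with 10137 to 10544 genes at 1 FPKM or more. The depth of sequencing is unknown. Hdac3, the gene removed, was far lower in all knockout libraries than in all wild-type libraries. It stood at 5.32, 6.37 and 4.13 FPKM in knockout libraries after running, against 31.1, 32.0 and 27.6 FPKM in wild-type libraries. At rest it stood at 5.51, 6.29 and 8.16 FPKM in knockout libraries, against 33.3, 31.1 and 23.7 FPKM in wild-type libraries. It fell in both comparisons (log2 difference -2.33 after running, limma adjusted p = 0.00111, and -1.99 at rest, limma adjusted p = 0.00487). All 10 skeletal muscle markers were detected in every group, and none of the 9 tested differed between genotypes in limma. Wild-type running library 1 stood apart for the oxidant defence genes: it was the highest of its 3 libraries for 8 of the 10, where 30.4% of 8854 genes were highest there.

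The 10 genes fell into an abundant and a scarce tier in every group. Sod2, the mitochondrial superoxide dismutase, had the highest mean in all 4 groups, 122 and 143 FPKM in knockout and wild-type muscle after running and 132 and 143 FPKM at rest. Gclc, Gclm and Hmox1 were the 3 lowest in all 4 groups, with means between 2.54 and 8.13 FPKM. Cat ranked above Prdx5 in knockout muscle and below it in wild-type muscle in both conditions. At rest these neighbours did not overlap in knockout libraries, with Cat at 77.9 to 85.9 FPKM and Prdx5 at 47.2 to 68.6 FPKM. They did not overlap in resting wild-type libraries either, where Cat stood at 40.4 to 53.2 FPKM and Prdx5 at 77.1 to 135 FPKM. After running, the ranges of Cat and Prdx5 overlapped in the knockout group.

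**Figure D1:**
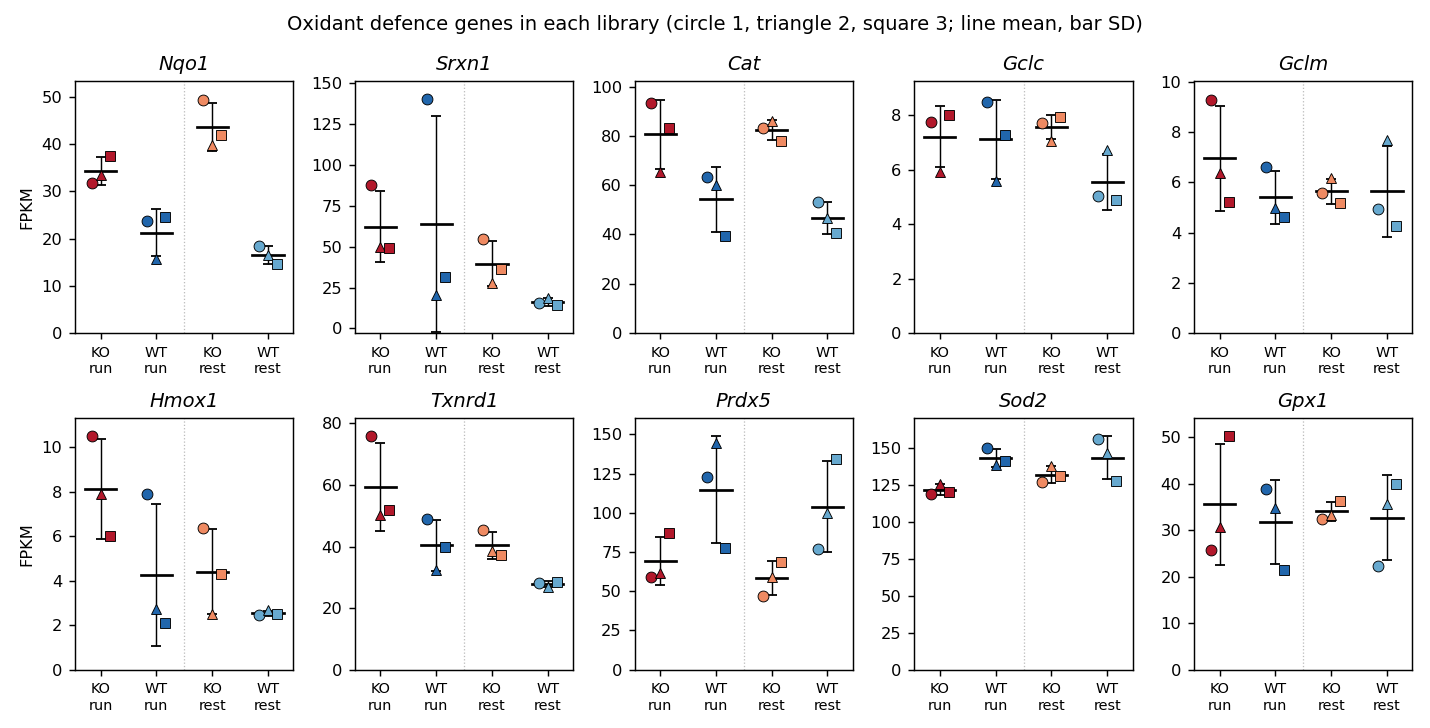
FPKM of each of the 10 genes in the 12 libraries, with the knockout group left of the wild type for running and for rest. Symbols number the libraries, horizontal lines are means and bars are SDs (n = 3), and each panel has its own scale. Nqo1, Cat and Txnrd1 lie higher in every knockout library than in every wild-type library of the same condition, and Srxn1 reaches 140 FPKM in 1 wild-type running library.

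At rest, knockout muscle held more mRNA of 4 of the 10 genes. Nqo1, Srxn1, Cat and Txnrd1 rose, none of the 10 fell in limma, and the other 6 did not pass the test. Over all genes tested, 4.72% passed, 3.04% higher and 1.67% lower. The median log2 difference over the 10 genes was 0.45, against 0.01 over all genes tested. By the q-values in the authors' deposited table, the same 4 genes were higher and Prdx5 was lower, where 5.9% of all tested genes were higher and 4.94% lower. For 5 genes there was no overlap between knockout and wild-type libraries on the higher side and for 1 on the lower side, against 15.6% and 12.4% of all tested genes.

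Nqo1, which reduces quinones by a transfer of a pair of electrons, showed the clearest difference. It stood at 49.4, 39.8 and 41.9 FPKM in knockout libraries at rest, against 18.5, 16.6 and 14.5 FPKM in wild-type libraries. The lowest knockout library was well above the highest wild-type library. Nqo1 averaged 43.7 ± 5.06 FPKM in knockout muscle and 16.5 ± 1.99 FPKM in wild-type muscle (SD, n = 3 each), a log2 difference of 1.35 (SE 0.13, limma adjusted p = 0.00554). It passed in all 6 fits that left out 1 library, with adjusted p of at most 0.0429. It was the only one of the 10 to do so at rest.

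Srxn1 encodes sulfiredoxin, which restores over-oxidised peroxiredoxins. It stood at 54.5, 27.6 and 36.6 FPKM in knockout libraries at rest, against 15.7, 18.7 and 14.2 FPKM in wild-type libraries. The knockout libraries spread widely, and all 3 lay above the wild type. The log2 difference was 1.19 (SE 0.23, limma adjusted p = 0.0345). The call held without knockout library 2 (adjusted p = 0.0311). It was lost without knockout library 1 (0.0614) or 3 (0.105) and without wild-type library 1 (0.0797), 2 (0.0965) or 3 (0.0818).

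Txnrd1, the cytosolic reductase that keeps thioredoxin reduced, stood at 45.4, 38.5 and 37.1 FPKM in knockout libraries at rest, against 28.3, 26.8 and 28.6 FPKM in wild-type libraries. The groups did not overlap, and the wild-type libraries lay within 2 FPKM of each other. The log2 difference was 0.51 (SE 0.11, limma adjusted p = 0.0417). The call was lost whichever of the 6 libraries was left out, with adjusted p between 0.0743 without wild-type library 3 and 0.163 without wild-type library 2. Part of Txnrd1 overlaps Eid3 and an uncharacterised non-coding gene in RefSeq, and whether the counting used strand is not given in the sources used here.

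Cat encodes catalase, the peroxisomal enzyme that splits hydrogen peroxide into water and oxygen. It stood at 83.1, 85.9 and 77.9 FPKM in knockout libraries at rest, against 53.2, 46.6 and 40.4 FPKM in wild-type libraries. No knockout library came near the wild-type range. The means were 82.3 ± 4.10 FPKM and 46.7 ± 6.41 FPKM in knockout and wild-type muscle (SD, n = 3 each), a log2 difference of 0.81 (SE 0.12, limma adjusted p = 0.0168). The call was lost without knockout library 1 (adjusted p = 0.0598), 2 (0.0523) or 3 (0.064) and without wild-type library 2 (0.078). Without wild-type library 2 the log2 difference stayed at 0.81, and the calls over all genes fell from 434 to 20. In that wild-type library 8 neutrophil markers summed to 544 FPKM, against 5.54 and 9.60 FPKM in the other wild-type libraries, and the part of this in the Cat values was not tested. Catalase is also abundant in red cells: none of 5 tested erythroid markers differed between genotypes at rest, and the sum of 8 erythroid markers was 137 to 297 FPKM in knockout libraries and 148 to 322 FPKM in wild-type libraries. The part of these cells in the Cat values was not tested.

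Prdx5 was the one gene with its libraries apart on the lower side at rest. It encodes a peroxiredoxin of mitochondria, peroxisomes and cytosol. It stood at 47.2, 59.2 and 68.6 FPKM in knockout libraries, against 77.1, 100 and 135 FPKM in wild-type libraries. The highest knockout library lay below the lowest wild-type library. The log2 difference of -0.80 did not pass limma (SE 0.22, adjusted p = 0.0879), whereas the authors' deposited table gave a q of 0.00119. Prdx5 overlaps Trmt112 in RefSeq, with the same limit on strand.

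Neither subunit of glutamate-cysteine ligase passed at rest. Gclc, the catalytic subunit of the enzyme that makes the first step of glutathione synthesis, stood at 7.71, 7.07 and 7.92 FPKM in knockout libraries, against 5.04, 6.72 and 4.89 FPKM in wild-type libraries. The libraries did not overlap, but the log2 difference of 0.40 did not pass (95% interval 0.08 to 0.71, limma adjusted p = 0.15). Gclm, the modifier subunit, stood at 5.57, 6.17 and 5.2 FPKM in knockout libraries, against 4.96, 7.71 and 4.27 FPKM in wild-type libraries. Its groups overlapped fully (log2 difference 0.03, 95% interval -0.42 to 0.48).

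Hmox1, which degrades haem, stood at 6.36, 2.52 and 4.33 FPKM in knockout libraries at rest, against 2.45, 2.67 and 2.51 FPKM in wild-type libraries. Library 2 of the knockout lay within the wild-type range and the others above it. The log2 difference was 0.55 (95% interval -0.04 to 1.13, limma adjusted p = 0.267). Sod2 stood at 127, 138 and 131 FPKM in knockout libraries, against 156, 146 and 127 FPKM in wild-type libraries. Gpx1, the cytosolic glutathione peroxidase, stood at 32.4, 33.3 and 36.3 FPKM in knockout libraries, against 22.4, 35.7 and 39.9 FPKM in wild-type libraries. Both pairs overlapped, with log2 differences of -0.11 for Sod2 (95% interval -0.36 to 0.14) and 0.10 for Gpx1 (95% interval -0.38 to 0.57).

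After running, none of the 10 genes passed limma between genotypes. Of all tested genes 3.73% passed, 1.58% higher and 2.15% lower. An unadjusted p under 0.05 was reached by 6 of the 10 and by 19.9% of all tested genes. The median log2 difference over the 10 genes was 0.34, against -0.00 over all genes tested. By the q-values in the authors' deposited table, Cat, Hmox1 and Txnrd1 were higher and Prdx5 was lower, where 4.66% of all tested genes were higher and 4.91% lower. The knockout libraries lay wholly above the wild type for 3 genes (Nqo1, Cat and Txnrd1) and wholly below it for Sod2, against 12.4% and 13.7% of all tested genes. Nqo1, Cat and Txnrd1 were thus without overlap on the higher side in both conditions, as were 6.36% of the 8854 genes tested in both, and none of the 10 was without overlap on the lower side in both, as 5.84% of all genes were.

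Nqo1 stood at 31.8, 33.5 and 37.5 FPKM in knockout libraries after running, against 23.7, 15.6 and 24.6 FPKM in wild-type libraries. All knockout libraries were higher, and wild-type library 2 was the lowest. The log2 difference was 0.68 (95% interval 0.27 to 1.09, limma adjusted p = 0.0835), and the q in the authors' deposited table was 0.237. Cat stood at 93.2, 65.3 and 83.3 FPKM in knockout libraries, against 63.5, 60.1 and 39.3 FPKM in wild-type libraries. The lowest knockout library was just above the highest wild-type library. Its log2 difference was 0.58 (SE 0.21, limma adjusted p = 0.178), with a q of 0.0153 in the authors' deposited table. Txnrd1 stood at 75.8, 50.3 and 52.0 FPKM in knockout libraries, against 49.0, 32.5 and 39.8 FPKM in wild-type libraries. Here too the groups stood narrowly apart. The log2 difference was 0.54 (SE 0.20, limma adjusted p = 0.193), with a q of 0.0256 in the authors' deposited table.

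Srxn1 stood at 87.5, 50.1 and 49.3 FPKM in knockout libraries after running, against 140, 20.7 and 31.7 FPKM in wild-type libraries. Wild-type library 1 held the highest Srxn1 value of all 12 libraries, and the other wild-type libraries lay below every knockout library. Its gap to the next wild-type library was 2.11 on the log2 scale, the 16th largest of 8854 genes for that library. The direction depended on the scale: the log2 difference was 0.40 (95% interval -1.03 to 1.82) while the ratio of the means was 0.971. Without wild-type library 1 the log2 difference was 1.20 (limma adjusted p = 0.0966).

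Hmox1 stood at 10.5, 7.89 and 6.00 FPKM in knockout libraries after running, against 7.91, 2.74 and 2.11 FPKM in wild-type libraries. All 3 knockout libraries were above wild-type libraries 2 and 3, while wild-type library 1 fell inside the knockout range. The log2 difference of 0.93 did not pass limma (SE 0.38, adjusted p = 0.226) and had a q of 0.0114 in the authors' deposited table. Without wild-type running library 1 it was 1.39 and passed (limma adjusted p = 0.0409). Macrophages also make Hmox1. The summed FPKM of 10 macrophage markers was 69.7 to 108 in knockout libraries after running and 36.6 to 57.0 in wild-type libraries, none was at 0 in all libraries of a group, and 2 of the 7 tested, Cd68 and Mrc1, rose. At rest the same sum was 49.5 to 79.5 FPKM in knockout libraries and 68.1 to 79.5 FPKM in wild-type libraries, and none of the 7 passed. The part of these cells in the Hmox1 values was not tested. In bulk muscle, a change in the number of cells of a type and a change in RNA per cell cannot be told apart.

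Prdx5 stood at 59.2, 61.4 and 87.1 FPKM in knockout libraries after running, against 123, 144 and 77.8 FPKM in wild-type libraries. Wild-type library 3 lay inside the knockout range. The log2 difference was -0.70 (SE 0.24, limma adjusted p = 0.167), with a q of 0.00243 in the authors' deposited table. Sod2 stood at 119, 126 and 120 FPKM in knockout libraries, against 149, 138 and 141 FPKM in wild-type libraries. The groups did not overlap, yet the difference was small (log2 difference -0.23, 95% interval -0.46 to -0.00, limma adjusted p = 0.247).

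Gclc stood at 7.74, 5.92 and 7.99 FPKM in knockout libraries after running, against 8.48, 5.58 and 7.28 FPKM in wild-type libraries. Gclm stood at 9.30, 6.39 and 5.24 FPKM in knockout libraries, against 6.62, 4.99 and 4.63 FPKM in wild-type libraries. Gpx1 stood at 25.7, 30.7 and 50.1 FPKM in knockout libraries, against 38.9, 34.7 and 21.5 FPKM in wild-type libraries. All 3 genes overlapped between genotypes. Their log2 differences were 0.02 for Gclc (95% interval -0.38 to 0.43), 0.29 for Gclm (-0.19 to 0.78) and 0.14 for Gpx1 (-0.51 to 0.80). The highest Gpx1 value came from knockout running library 3, in which 8 neutrophil markers summed to 358 FPKM, against 2.14 and 3.45 FPKM in the other knockout libraries. In the same library 8 erythroid markers summed to 436.6 FPKM, against 185.3 and 145.5 FPKM in the other knockout running libraries. Wild-type resting library 2, with neutrophil markers at 544 FPKM, held a Gpx1 value of 35.7 FPKM, the middle value of its group. The part of these cells in the Gpx1 values was not tested.

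Whether the knockout effect differed between running and rest was tested over all 12 libraries with differences taken within each condition. None of the 10 genes passed, and neither did any of the 8854 genes in limma, of which 433 had an unadjusted p under 0.05. The interaction was most negative for Srxn1 (log2 -0.80, 95% interval -2.46 to 0.86) and Nqo1 (log2 -0.67, 95% interval -1.17 to -0.16, limma adjusted p = 0.923). For Txnrd1 it was 0.03 (95% interval -0.50 to 0.56), for Cat -0.23 (-0.80 to 0.33) and for Prdx5 0.10 (-0.69 to 0.89).

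Averaged over both conditions, 3 of the 10 genes rose in knockout muscle and 1 fell, where 17.2% of the 8854 genes passed, 9.05% higher and 8.11% lower. Nqo1 rose by a log2 difference of 1.02 (SE 0.12, limma adjusted p = 0.000172). Cat rose by 0.69 (SE 0.13, adjusted p = 0.00328) and Txnrd1 by 0.52 (SE 0.12, adjusted p = 0.0112). Prdx5 fell by 0.75 (SE 0.18, limma adjusted p = 0.0139). These 4 passed in all 12 fits that left out 1 library. Hmox1 had an averaged log2 difference of 0.74 (adjusted p = 0.0676). Without wild-type running library 1 this was 0.97 (limma adjusted p = 0.00592), and without knockout resting library 2 it was 0.88 (0.0397). Srxn1 averaged 0.79 (adjusted p = 0.177), and 1.20 (limma adjusted p = 0.00337) without wild-type running library 1. Gclc, Gclm and Gpx1 averaged 0.21, 0.16 and 0.12 and Sod2 -0.17 on the log2 scale, none of which passed, though Sod2 did without wild-type resting library 3 (-0.21, limma adjusted p = 0.0368).

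**Figure D2:**
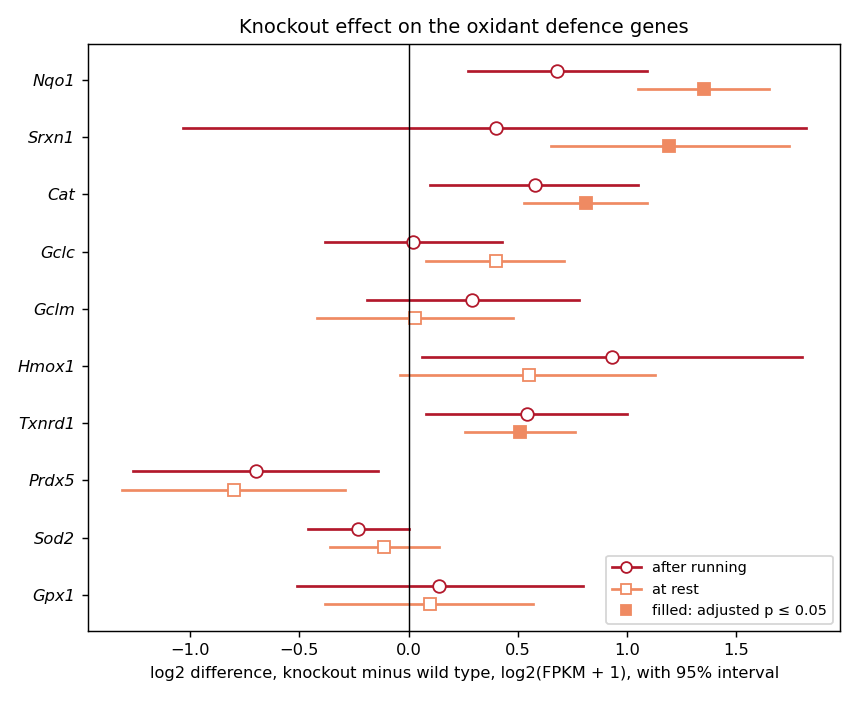
Log2 difference between knockout and wild-type libraries for each gene, on log2(FPKM + 1), after running (circles) and at rest (squares), with 95% intervals and 3 libraries per group. The 4 filled squares are Nqo1, Srxn1, Cat and Txnrd1 at rest; no circle is filled, and the widest interval is that of Srxn1 after running.

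The levels after running can be set beside those at rest only as a description, because the tables were normalized separately. Over all genes tested in both, the median log2 ratio of running to rest was -0.02 in knockout and -0.00 in wild-type muscle. Txnrd1 was higher after running in each genotype with no overlap of libraries, by a ratio of means of 1.47 in knockout and 1.45 in wild-type muscle. Srxn1 had a ratio of 1.57 in knockout and 3.96 in wild-type muscle, where wild-type running library 1 held 140 FPKM and the other wild-type running libraries 20.7 and 31.7 FPKM. Its libraries overlapped between running and rest in knockout muscle and did not in wild-type muscle. Hmox1 had ratios of 1.85 and 1.67 in knockout and wild-type muscle, with overlapping libraries. Nqo1 differed in direction between genotypes: 34.3 FPKM after running and 43.7 FPKM at rest in knockout muscle, without overlap, and 21.3 and 16.5 FPKM in wild-type muscle, with overlap. Cat ratios were 0.979 in knockout and 1.16 in wild-type muscle, and Sod2 ratios 0.922 and 0.998. Sod2 libraries did not overlap between running and rest in knockout muscle, and those of Cat overlapped in both genotypes. The share of all genes without overlap between running and rest was not computed.

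The genes differed in how evenly the libraries of a group carried them. In resting knockout muscle the coefficient of variation was 4.15% for Sod2 and 4.98% for Cat, and 34.6% for Srxn1 and 43.6% for Hmox1. In wild-type muscle after running it reached 103% for Srxn1 and 74.8% for Hmox1. Library 1 was the highest of the knockout running group for 5 of the 10 genes, namely Srxn1, Hmox1, Txnrd1, Cat and Gclm. Among the resting knockout libraries, library 1, a different sample, was the highest for Nqo1, Srxn1, Hmox1 and Txnrd1. The share of all genes that were highest in each of these libraries was not computed.

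**Figure D3:**
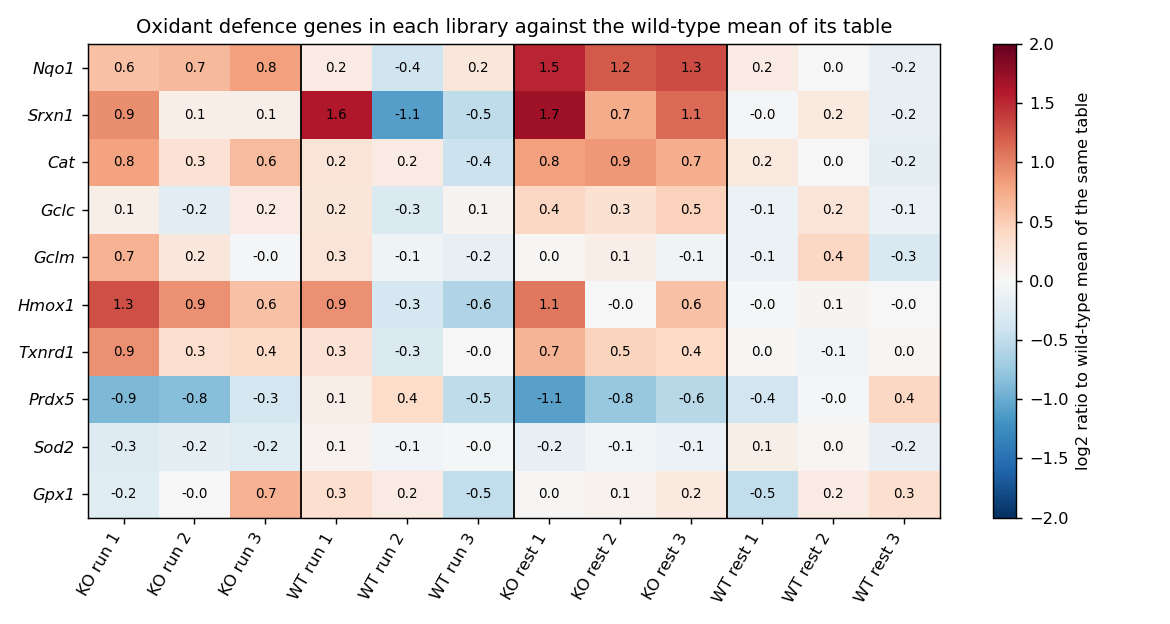
Each cell is the log2 ratio of 1 library, on log2(FPKM + 1), to the mean of the wild-type libraries of the same table, with knockout columns left of wild type for running and for rest. Nqo1, Srxn1, Cat and Txnrd1 are positive in all 6 knockout libraries and Prdx5 and Sod2 negative in all 6, while wild-type running library 1 is positive for all 10 genes and reaches 1.6 for Srxn1.

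Likeness of pattern was measured as the root mean square distance between library values, each taken against the wild-type mean of its table, over 12 libraries. Among the 10 genes the closest pair was Cat and Txnrd1 at 0.27 log2 units, followed by Gclc and Gclm at 0.31. The farthest pair was Srxn1 and Prdx5 at 1.36. Of 8481 genes ranked, those nearest to Nqo1 were Usp46, Arntl, Ctsl, Hoxa4 and Hat1, at 0.22 to 0.25 where the median gene stood at 0.80. Arntl, which encodes the circadian factor BMAL1, differed by a log2 of 0.67 after running and 1.05 at rest. Ctsl, a lysosomal protease, differed by 0.81 after running and 1.20 at rest. Those nearest to Cat were Gatb, Arl6ip5, Herpud1, Lrrc57 and Acss1, at 0.13 to 0.19 against a median of 0.57. Nearest to Srxn1 were Dnajb4, Btg2, Rnf115, Hbegf and Fam134b, at 0.34 to 0.47 against a median of 0.92. Dnajb4 encodes a heat shock co-chaperone, and its highest value was also in wild-type running library 1, 131 FPKM against 44.7 and 55.7 FPKM in the other wild-type running libraries. Btg2, Rnf115 and Hbegf had their highest value in that library too, at 37, 201 and 58.1 FPKM. Fam134b had its highest in knockout running library 1, at 421 FPKM. Nearest to Prdx5 were Kctd15, Gpc1, Cdh15, Zfp651 and Cbr2, at 0.17 to 0.20 against a median of 0.65.

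NRF2 itself was measured beside its targets. Nfe2l2 averaged 33.4 ± 7.17 FPKM in knockout and 27.3 ± 5.19 FPKM in wild-type muscle after running, and 29.7 ± 3.99 FPKM in knockout and 21.6 ± 1.41 FPKM in wild-type muscle at rest (SD, n = 3 each). Its log2 difference was 0.28 after running (limma adjusted p = 0.459) and 0.43 at rest (limma adjusted p = 0.0975), and the q at rest in the authors' deposited table was 0.0381. Keap1 differed by a log2 of 0.00 after running (95% interval -0.40 to 0.40) and 0.12 at rest (95% interval -0.24 to 0.48). None of the 14 listed genes for NRF2 and its regulators passed limma in either condition. Sqstm1, the autophagy adaptor that binds KEAP1, had log2 differences of 0.38 after running (limma adjusted p = 0.294) and 0.44 at rest (limma adjusted p = 0.0733), and Nfe2l1 had 0.09 and 0.13. The q of Sqstm1 in the authors' deposited table was 0.145 after running and 0.035 at rest. Averaged over conditions, 1 of the 14 was higher and 1 lower, shares near the 9.05% and 8.11% of all genes. Bach1, a repressor at antioxidant response elements, fell by 0.43 in that test (limma adjusted p = 0.0107). Sqstm1 rose by 0.41 in the averaged test (limma adjusted p = 0.026), a call kept in 7 of 12 fits with 1 library left out and lost most clearly without wild-type running library 2 (0.0651).

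The companion lists were chosen with earlier results of these data known, so their shares beside those of all genes are a description only. With the NRF2 list, 9 companion lists of the wider oxidant defence held 110 tested genes in each condition. Of these, 6 passed limma after running, where 3.73% of all tested genes passed, and 11 at rest, where 4.72% passed. None of them kept its call in all 6 fits that left out 1 library. In the averaged test 28 of 106 passed, where 17.2% of all genes did, and 19 of the 28 passed in all 12 such fits. The counts per list that follow are to be read against the 9.05% of all genes that were higher and the 8.11% that were lower in that test. The genes named from here are from the averaged test and are among those 19, unless a condition or another count is given.

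Of 9 genes of NADPH supply, the electron source of these reductases, Idh2 and Me1 rose and the other 7 did not pass. Idh2, the mitochondrial NADP-dependent isocitrate dehydrogenase, averaged 165 ± 21.3 FPKM in knockout and 97.3 ± 15.2 FPKM in wild-type muscle after running, and 194 ± 26.6 FPKM in knockout and 84.4 ± 14.8 FPKM in wild-type muscle at rest (SD, n = 3 each). It rose by a log2 difference of 0.98 averaged over conditions (SE 0.12, limma adjusted p = 0.000223). It also passed in each condition alone (log2 0.76 after running, adjusted p = 0.0402, and 1.20 at rest, limma adjusted p = 0.0148). Me1, cytosolic malic enzyme, rose by 0.51 (SE 0.07, limma adjusted p = 0.000574), and it also passed at rest.

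Of the glutathione genes outside the 10, 2 of 14 were higher and 3 lower, against 9.05% and 8.11% of all genes. Chac1, which breaks glutathione down, rose by a log2 difference of 1.02 (SE 0.21, limma adjusted p = 0.00545). Gss, glutathione synthetase, rose by 0.57 (SE 0.12, limma adjusted p = 0.00561). The glutaredoxins Glrx5, of mitochondrial iron-sulphur assembly, and Glrx, the cytosolic form, fell by 0.57 and 0.61 (limma adjusted p = 0.00167 and 0.00538). These 4 also passed at rest. None of the 14 passed after running, when the abundant Glo1 and Glrx3 had log2 differences of -0.34 and -0.20.

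Of the thioredoxin and peroxiredoxin partners, 2 of 14 were higher and 4 lower, against the same 9.05% and 8.11%. Txn1, the substrate of Txnrd1, averaged 49.5 ± 5.95 FPKM in knockout and 38.4 ± 1.75 FPKM in wild-type muscle after running, and 51.5 ± 4.18 FPKM in knockout and 37.0 ± 2.35 FPKM in wild-type muscle at rest (SD, n = 3 each). It rose by a log2 difference of 0.41 (SE 0.08, limma adjusted p = 0.00313). Prdx2, a cytosolic peroxiredoxin with named pseudogenes that could share its reads, fell by 0.45 (SE 0.07, limma adjusted p = 0.00165). Msrb2, a mitochondrial methionine sulfoxide reductase, fell by 0.88 (SE 0.16, limma adjusted p = 0.00299), while Msrb1 rose by 0.36 (limma adjusted p = 0.0206). Prdx2 and Msrb2 also passed after running. At rest Sesn2, a stress-induced regulator of metabolism, was the 1 call of this list, at 2.05 ± 0.421 FPKM in knockout and 0.491 ± 0.17 FPKM in wild-type muscle (SD, n = 3 each).

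Of the other superoxide dismutase and glutathione peroxidase genes, Ccs, the copper chaperone of SOD1, rose by a log2 difference of 0.65 (SE 0.15, limma adjusted p = 0.0102), and Sod1 fell by 0.30 (SE 0.07, limma adjusted p = 0.0155). Gpx4 rose by 0.46 (limma adjusted p = 0.0383) in a call kept in 2 of 12 fits, with 0.0901 without wild-type resting library 2. Its named pseudogenes could share its reads. Ccs also passed at rest, and none of 7 passed after running, when Gpx4 and Sod1 had log2 differences of 0.39 and -0.26.

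Among other enzymes that handle quinones, carbonyls and xenobiotics, 1 of 14 rose, a share near the 9.05% of all genes, and 3 fell, against 8.11%. Ephx1, microsomal epoxide hydrolase, rose by a log2 difference of 0.53 (SE 0.09, limma adjusted p = 0.00149). Akr1b10, an aldo-keto reductase, fell by 0.57 (SE 0.07, limma adjusted p = 0.000296), and Aox1, aldehyde oxidase, fell by 0.56 (limma adjusted p = 0.00782). Nqo2, the paralogue of Nqo1, fell by 0.35 (SE 0.09, limma adjusted p = 0.0167). The difference between Nqo1 and Nqo2 was itself not tested. At rest Akr1b10, Aox1 and Cbr1, a carbonyl reductase, passed with log2 differences of -0.55, -0.70 and -0.77, and after running Akr1b10 and Ephx1 passed with -0.60 and 0.54.

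In the iron and haem list, 2 of 11 rose, against 9.05% of all genes, and 1 fell, a share near the 8.11% of all genes. Ftl1, the ferritin light chain, averaged 201 ± 42.0 FPKM in knockout and 113 ± 27.2 FPKM in wild-type muscle after running, and 184 ± 28.2 FPKM in knockout and 101 ± 45.3 FPKM in wild-type muscle at rest (SD, n = 3 each). It rose by a log2 difference of 0.89 (SE 0.20, limma adjusted p = 0.0106), with named pseudogenes that could share its reads. In neither condition alone did Ftl1 pass (limma adjusted p = 0.0782 after running and 0.126 at rest). Its q in the authors' deposited table was 0.00132 after running and 0.00119 at rest. Alas1, the first enzyme of haem synthesis, rose by 0.35 (limma adjusted p = 0.0216) in a call kept in 10 of 12 fits, with 0.0581 without wild-type resting library 2. Aco1 fell by 0.34 (limma adjusted p = 0.0489), a call kept in 1 of 12 fits, with 0.116 without the same library. Fth1, the ferritin heavy chain, had log2 differences of 0.51 after running and -0.02 at rest, neither past limma. The q of Fth1 in the authors' deposited table was 0.0256 after running and 0.968 at rest.

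Among sources of oxidants 4 genes were tested in both conditions, and Maob and Maoa, the mitochondrial monoamine oxidases that release hydrogen peroxide, fell. Maob fell by 0.80 (SE 0.14, limma adjusted p = 0.00288). It passed limma after running (log2 -0.96, limma adjusted p = 0.04) and not at rest (-0.63), when Xdh, xanthine dehydrogenase, had -0.01. The q of Maob at rest in the authors' deposited table was 0.0121. Maoa fell by 0.34 (limma adjusted p = 0.0331) in a call kept in 4 of 12 fits, with 0.0755 without wild-type running library 1. Of the other genes of the peroxisome, where catalase acts, none of 20 passed limma after running and none of 21 at rest. Their median log2 difference was 0.03 after running and 0.04 at rest. Scp2 had log2 differences of -0.19 after running and -0.08 at rest. In the averaged test Hacl1 rose by 0.43 (limma adjusted p = 0.0253), a call kept in 7 of 12 fits, with 0.0581 without wild-type running library 2.

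**Figure D4:**
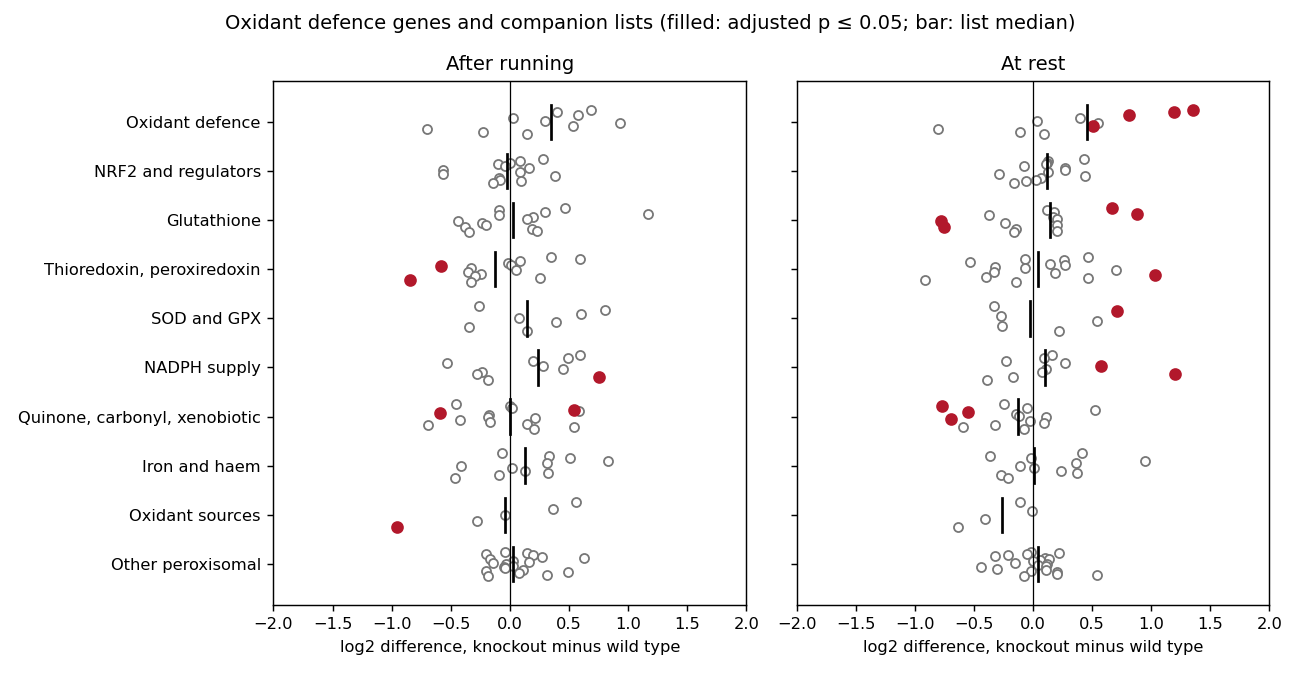
Log2 difference between knockout and wild-type libraries, on log2(FPKM + 1), for every tested gene of the 10 oxidant defence genes and of 9 companion lists, after running (left) and at rest (right), with 3 libraries per group. Each circle is a gene, filled where limma's adjusted p was at or under 0.05, and the bar is the list's median. The filled circles of the oxidant defence genes all stand at rest and to the right, while filled circles of the glutathione genes stand on both sides.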

How the data were processed

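RNA-seq was available from quadriceps of 12 libraries in 4 groups of 3. The submitters' processing notes name mm9, TopHat2, Bowtie, HOMER and Cuffdiff. Their versions, how Cuffdiff scaled the libraries, the annotation and strandedness are not given in the sources used here. The authors deposited FPKM per library in 1 table for running and 1 for rest, with their own p-value and q-value columns, which are Cuffdiff's comparison of the genotypes. No counts were used, so depth and counting error are unknown. GRO-seq was not analysed here. Each library column was assigned to its sample from the genotype, condition and number it carries. After running, 27 gene names read as dates, and those rows were dropped.

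The genes compared and the companion lists were chosen with earlier results of these data known. Of each companion list the text names up to 4 genes past the test by adjusted p, and otherwise the 2 most abundant. Tests used limma (version 3.58.1, R 4.3.3) on the log2(FPKM + 1) scale, two-sided, with a mean-variance trend and Benjamini-Hochberg adjustment over all rows the authors had tested (p under 1), 9037 after running and 9204 at rest. The call was an adjusted p at or under 0.05. The log2(FPKM + 1) scale understates the change of low genes. The interaction and the averaged effect came from 1 fit of all 12 libraries over the 8854 genes tested in both tables. The fit was tested on simulated data with independent normal spread on the log2 scale and no outlying library. How it behaves with outlying libraries was not simulated. With 3 libraries a side, exact permutation cannot reach a p below 0.1, so it was left out. No 2 libraries shared more than 1 identical value among genes at 1 FPKM or more in all 12. Gene names, overlaps and promoter windows came from RefSeq on GRCm38.p6, another build than mm9, so no position of a measured transcript is given. Pseudocount, filters on low values, scaling, the replicate number as a block, the libraries sharing the fit and the mean-variance trend were varied, and each library was left out in turn. A gene of a companion list that the rule names is not reported here.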

Additional observations from a re-analysis of the deposited data

How the results depend on the processing

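The count of oxidant defence genes past the test at rest, 4, was 2 with no filter on low values, 2 in the fit of all 12 libraries and 1 with the replicate block, and 1 to 2 with 1 library left out. After running the count of 0 became 1 in the fit of all 12 libraries (Nqo1, limma adjusted p = 0.0265) and was 0 to 1 with 1 library left out. The averaged count of 4 was 4 to 6 with 1 library left out. Over all genes, 434 calls at rest became 247 with no filter, 52 with the replicate block, 672 in the 12-library fit and 20 to 292 with 1 library left out. After running, 337 calls became 109, 170, 586 and 70 to 103 in the same order. The interaction gave 0 to 1 genes with 1 library left out. Over all genes tested in both conditions, the replicate numbers did not pair the libraries. Deviations of libraries with the same number correlated at 0.04, -0.04 and 0.02 at rest and 0.14, -0.29 and -0.13 after running. Those of knockout and wild-type libraries with other numbers correlated at -0.05 to 0.03 at rest and -0.20 to 0.37 after running. With the replicate block the SE after running fell from 0.62 to 0.32 for Srxn1 and from 0.38 to 0.21 for Hmox1. That SE rose for Prdx5, Sod2 and Gpx1. No gene past the test in the main analysis turned its sign.

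Among the same genes, sign changes occurred in those that did not pass, only where 1 library was left out. The log2 difference ranged from -0.12 to 0.24 for Gclm, -0.15 to 0.26 for Gpx1, -0.00 to 0.28 for Keap1, -0.08 to 0.04 for Fth1, -0.13 to 0.22 for Xdh and -0.17 to 0.01 for Scp2 at rest. After running it ranged from -0.15 to 1.20 for Srxn1, -0.12 to 0.14 for Gclc, -0.13 to 0.34 for Gpx1, -0.17 to 0.15 for Keap1 and -0.09 to 0.23 for Nfe2l1. The interaction ranged from -1.35 to 0.00 for Srxn1, -0.16 to 0.17 for Txnrd1, -0.15 to 0.30 for Prdx5 and -0.22 to 0.29 for Gpx1, and the averaged difference from -0.02 to 0.22 for Gpx1. The cause was not tested. With 3 libraries per group and no counts, the size of a difference within its 95% interval could not be resolved. The causes of the spread between libraries were not tested.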
